A study of Mus musculus with 6 samples.

Results

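The AP-1 and EGR immediate early factors were examined as 10 genes, Fos, Fosb, Fosl1, Fosl2, Jun, Junb, Jund, Egr1, Egr2 and Egr3, each found by its symbol among the 27179 genes of the authors' table. Messenger RNA had been sequenced from primary vascular smooth muscle cells of the mouse aorta in 6 libraries, 3 labelled Bmal1 KO and 3 labelled WT. Cells under both labels had spent 7 days in what the labels call diabetic medium, with glucose (4.5 g/L) and hydrogen peroxide (0.3 mM) added. Every difference is therefore between genotype labels within this medium. Bmal1 encodes the activator of the circadian clock that pairs with CLOCK. The labels give no strain, age, allele or Cre driver for the deletion, and they do not say that replicates were separate cultures or animals. The p-values therefore measure the spread between these libraries, which may be technical.

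Immediate early genes are switched on within minutes of a growth factor, stretch or stress signal, through factors already present in the cell and without new protein synthesis. FOS and JUN proteins carry a leucine zipper and pair to form AP-1, in which a JUN protein can pair with itself or with a FOS protein, while FOS proteins need a partner. EGR proteins bind GC-rich DNA through zinc fingers. In the artery wall these factors are known for their induction by injury and mitogens, which accompanies smooth muscle growth and migration.

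Values are the authors' normalized read counts, in which the reads of a gene were divided by a size factor per library, and ± gives the SD over 3 libraries. A difference is Bmal1 KO minus WT on the log2(value + 1) scale, with its standard error (SE), and the test was limma over 16086 genes with Benjamini-Hochberg adjustment and a threshold of 0.05. All 10 members passed the filter on low values, and the smallest number of reads behind any member in any library was 94, for Fosb. Library totals ran from 32503525 to 38074293 reads for Bmal1 KO and from 39129037 to 44657471 for WT. Bmal1 itself, listed under the symbol Arntl, was higher under the Bmal1 KO label (1005 ± 54.9, against 579 ± 45.7 in WT, limma adjusted p = 0.000135), and gene-level counts cannot show a deleted exon. All directions are therefore between libraries as labelled. The non-coding RNA Xist of the inactive X chromosome was higher (3867 ± 23.1 in Bmal1 KO, against 58.7 ± 40.8 in WT) and 4 of 4 Y-linked genes were lower in the same libraries, so genotype label and sex-linked expression cannot be told apart.

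The 10 genes split by family member rather than moving as a block. In the libraries labelled Bmal1 KO, Fos, Fosb and Jun rose, Fosl1, Fosl2, Junb, Jund and Egr1 fell, and Egr2 and Egr3 did not pass the test. The rise of Jun was small (1.15-fold) and missed the threshold in some alternatives, over which 2 to 3 members were higher. Differences ran from a 2.82-fold rise of Fos to a 4.69-fold fall of Egr1. With 8 of 10 members past the threshold, the share lies near that of all tested genes, of which 71.1% passed. The 3 rises compare with 36.2% of tested genes called higher, and the 5 falls with 34.9% called lower. Of the members, 4 passed and differed at least 2-fold (Fos, Fosl2, Junb and Egr1), against 33.4% of tested genes. In 8 members the values of the groups did not overlap, as in 76.7% of tested genes. The median log2 difference of the members was -0.31, beside -0.012 over all genes tested.

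**Figure D1:**
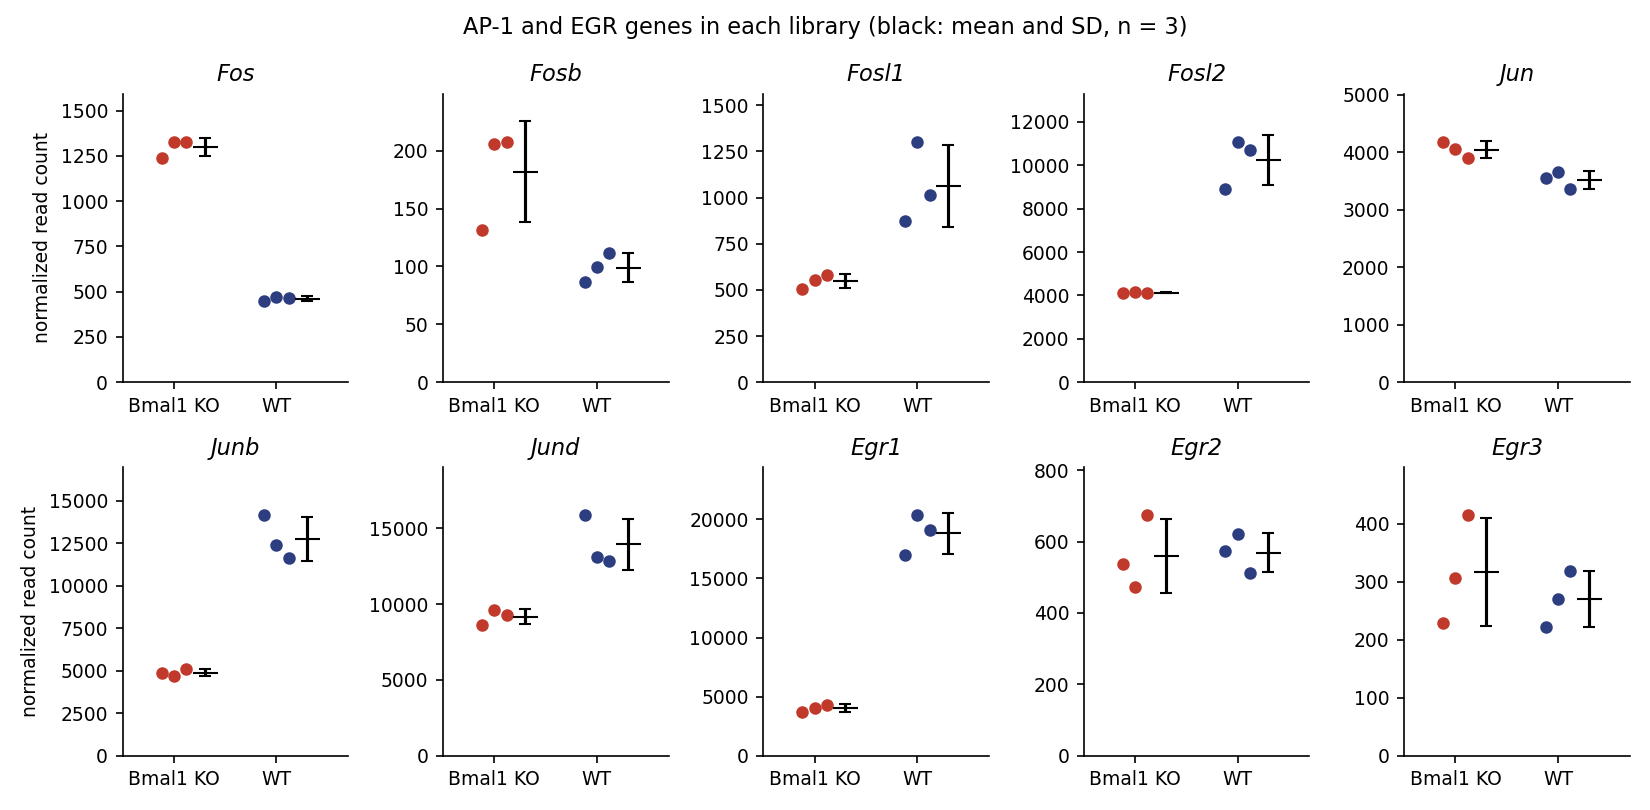
Normalized read counts of the 10 AP-1 and EGR genes in each library, with Bmal1 KO libraries in red and WT libraries in blue on axes that start at 0, and the mean and SD of the 3 libraries of a group in black. Points of the groups do not overlap in 8 genes and overlap in Egr2 and Egr3.

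Upstream sequences show the kind of site these genes are known to respond through, and are printed for 4 members of the FOS and JUN families. Windows of 250 bases before the annotated start were found for 7 of the 10 members in RefSeq (build GRCm38.p6), with 11 windows in all since Egr2 has several starts. No window was found for Egr1, Egr3 and Fosl1. Both strands were searched for TGACG, the core of the cAMP response element, for its full form TGACGTCA, which contains TGACG, for TGACATCA, an AP-1 site, for the AP-1 consensus TGANTCA, for the EGR site GCGNGGGCG, for CACGTG, the E-box that CLOCK and BMAL1 bind, and for the CArG box of the serum response factor SRF. The last 130 bases before the start follow, 5′ to 3′ on the gene's strand, with matches in capitals, for Fos (chr12:85473760-85473889, plus strand), Jun (chr4:95052223-95052352, minus strand), Junb (chr8:84978749-84978878, minus strand) and Fosl2 (chr5:32136342-32136471, plus strand).
Fos: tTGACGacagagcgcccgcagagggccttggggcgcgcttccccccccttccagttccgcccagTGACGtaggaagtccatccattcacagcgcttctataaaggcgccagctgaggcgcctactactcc
Jun: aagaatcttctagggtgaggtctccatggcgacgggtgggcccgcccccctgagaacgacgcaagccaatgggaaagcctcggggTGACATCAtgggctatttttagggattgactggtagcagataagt
Junb: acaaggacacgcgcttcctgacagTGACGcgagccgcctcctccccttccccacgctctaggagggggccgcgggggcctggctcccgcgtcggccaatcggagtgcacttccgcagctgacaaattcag
Fosl2: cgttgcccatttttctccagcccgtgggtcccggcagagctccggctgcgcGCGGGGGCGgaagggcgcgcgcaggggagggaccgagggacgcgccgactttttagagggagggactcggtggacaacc

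TGACG stood at positions -66 to -62 and -129 to -125 of Fos, counted back from the annotated start, and at -106 to -102 of Junb. Fosb held it at -60 to -56. Egr2 held it in 3 of its windows, which overlap and share the same matched bases, so 4 of 7 members held it. The transcript starts used for Fosb and Egr2 lie inside the genes as annotated, so their matches are upstream of those starts but within the gene. The same 5 letters occurred in 17.8% of all 32851 windows of this length, a share per window, while members are counted per gene. TGACATCA was present in Jun alone among the 7 members with windows, at -45 to -38, and in 2.93% of all windows. GCGNGGGCG matched in Fosl2 at -79 to -71 and in the same Fosb window at -50 to -42, and in 4.70% of all windows. Among member windows a CArG box (1.47% of all windows) and the E-box CACGTG (6.02% of all windows) were present in Egr2 only. Bases further upstream were not searched, nor were Egr1, Egr3 and Fosl1, so these matches do not show which members lack a site. TGACGTCA and TGANTCA did not occur in the member windows, and they occurred in 1.55% and 6.75% of all windows. Of the 4 members that held TGACG, Fos and Fosb rose, Junb fell and Egr2 did not pass the test. Whether any of these sites bears on the differences was not tested.

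The FOS family moved in opposite directions. Fos, the founding gene of the family (chromosome 12, 85473890 to 85477274), had 1240.1, 1325 and 1329 normalized counts in Bmal1 KO libraries, against 447, 471 and 465 in WT libraries. All 3 Bmal1 KO values lay far above the WT values, and the spread within each group was small. The log2 difference was 1.49 (SE 0.075, limma adjusted p = 1.72e-06). A larger absolute difference was seen in 23.1% of tested genes. Fosb, whose product also pairs with JUN proteins (chromosome 7, 19302696 to 19310118), was the member with fewest reads, with 131, 206 and 208 in Bmal1 KO libraries and 86.2, 99.5 and 111 in WT libraries. Here too the groups did not overlap, although the lowest Bmal1 KO library came close to the highest WT library. Fosb rose 1.84-fold (log2 difference 0.85, SE 0.22, limma adjusted p = 0.00929).

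Fosl1 and Fosl2 encode FRA-1 and FRA-2, family members that lack the strong activation domain of FOS and FOSB. Fosl1 (chromosome 19, 5447698 to 5455938) had 505, 555 and 579 normalized counts in Bmal1 KO libraries, against 870.4, 1303 and 1011 in WT libraries. Every Bmal1 KO library was below every WT library, and the WT libraries differed among themselves more than the Bmal1 KO ones did. Its log2 difference was -0.94 (SE 0.15, limma adjusted p = 0.000707). Fosl2 (chromosome 5, 32136472 to 32157840) had 4109.7, 4154 and 4133 in Bmal1 KO libraries and 8915, 11093 and 10686 in WT libraries. The Bmal1 KO values were nearly identical and well under the lowest WT value, a 2.48-fold fall (log2 difference -1.30, SE 0.087, limma adjusted p = 7.49e-06). Fosl1 overlaps Ccdc85b on the opposite strand over 2767 bases of annotated gene, and the strand setting used in counting is not given in the sources used here. Ccdc85b averaged 2465 in Bmal1 KO and 3412 in WT libraries (log2 difference -0.44, limma adjusted p = 0.0378), so the share of Fosl1 reads from its partner is uncertain.

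Among the JUN genes, Junb and Jund fell while Jun was slightly higher. Jun encodes the partner that FOS proteins most often take and that can also bind DNA as a homodimer (chromosome 4, 95049036 to 95052222). It had 4184, 4049 and 3892 normalized counts in Bmal1 KO libraries, against 3556, 3659 and 3353 in WT libraries. The groups did not overlap, but the difference was small (1.15-fold, log2 difference 0.20, 95% interval 0.056 to 0.34, limma adjusted p = 0.0197). Jun missed the threshold on leaving out WT replicate 3 (limma adjusted p = 0.0647), Bmal1 KO replicate 2 (0.0659) or Bmal1 KO replicate 1 (0.0828), with TMM scaling (0.0922) and with edgeR's quasi-likelihood test on recovered reads (0.0511). Over all 19 alternatives its adjusted p ran from 0.0052 to 0.711.

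Junb, a weaker activator than JUN that can oppose it (chromosome 8, 84976909 to 84978748), had 4854, 4695 and 5086 in Bmal1 KO libraries and 14161, 12419 and 11649 in WT libraries. Its lowest WT library was more than double its highest Bmal1 KO library. The log2 difference was -1.38 (SE 0.082, limma adjusted p = 4.21e-06), a 2.61-fold fall. Jund, which is expressed broadly also in resting cells (chromosome 8, 70697739 to 70700616), had 8650.5, 9604 and 9309 in Bmal1 KO libraries, against 15884, 13127 and 12846 in WT libraries. It fell 1.52-fold without overlap (log2 difference -0.60, SE 0.094, limma adjusted p = 0.000720). Junb overlaps 351 bases of Prdx2 on the opposite strand, and Prdx2 averaged 13962 in Bmal1 KO and 12914 in WT libraries without passing the test (limma adjusted p = 0.384). Jun and Jund overlap antisense RNAs that have no row of their own in the table.

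Egr1 showed the largest difference of the 10 genes. It encodes a zinc finger factor that is induced in smooth muscle cells at sites of vessel injury (chromosome 18, 34861207 to 34864956). Bmal1 KO libraries had 3667, 4043 and 4317 normalized counts, against 16949, 20366 and 19145 in WT libraries. The groups were widely separated, with a log2 difference of -2.23 (SE 0.091, limma adjusted p = 5.64e-07), and 13.1% of tested genes had a larger absolute difference. Egr2, best known for its part in myelination by Schwann cells (chromosome 10, 67534469 to 67542188), had 536, 471 and 674 in Bmal1 KO libraries and 573, 620.3 and 511 in WT libraries. Egr3, known from neurons and muscle spindles (chromosome 14, 70077317 to 70082613), had 229, 307 and 415 in Bmal1 KO libraries and 222, 269.5 and 319 in WT libraries. In both genes the groups overlapped and no difference passed the test. The 95% interval of the log2 difference was -0.37 to 0.31 for Egr2 (limma adjusted p = 0.855) and -0.33 to 0.74 for Egr3 (limma adjusted p = 0.447). These intervals do not include the value of Egr1.

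**Figure D2:**
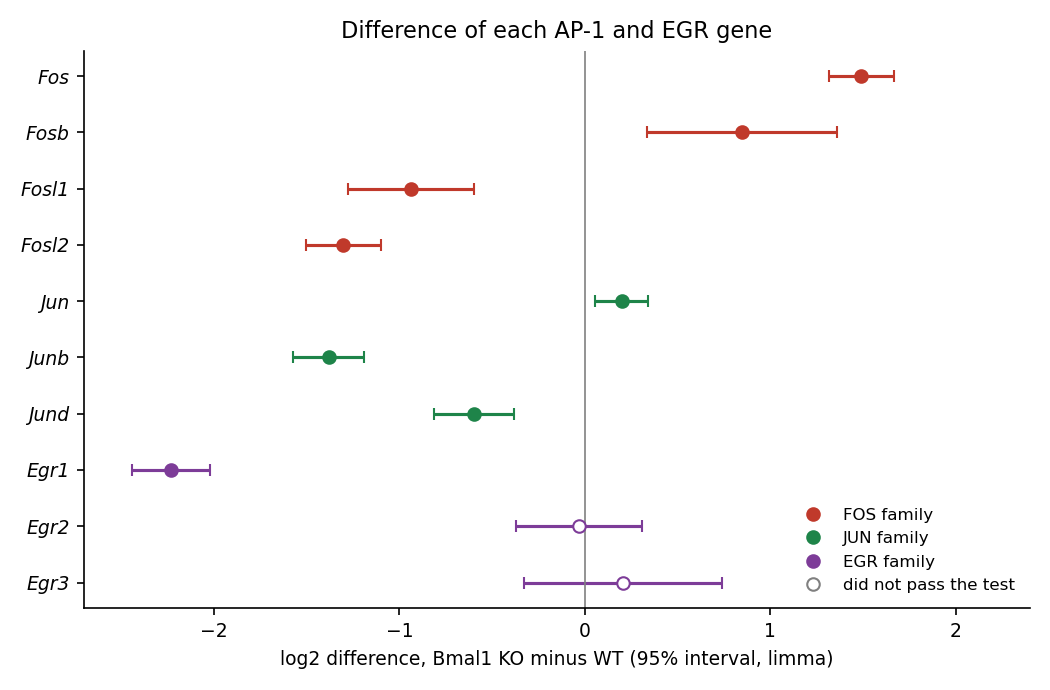
Log2 difference of each gene, Bmal1 KO minus WT, with its 95% interval from limma on the horizontal axis, coloured by family and open where the test was not passed. Within the FOS family the differences run from 1.49 for Fos to -1.30 for Fosl2, and Egr1 at -2.23 lies apart from Egr2 and Egr3.

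Precision differed between the genes. Egr3 and Fosb had the widest relative spread in Bmal1 KO libraries, with coefficients of variation of 29.4% and 24.0%, and Fosl2 had the narrowest at 0.541%. In WT libraries the coefficient ran from 2.76% for Fos to 20.8% for Fosl1. Counting error alone would give 5.96% for Egr3 and 7.88% for Fosb in Bmal1 KO libraries, so their spread between libraries was several times larger. The spread of Fosl2 in Bmal1 KO libraries and of Fos in WT libraries was below their counting errors of 1.64% and 4.39%. Fosl2, Fosl1, Junb, Jund, Jun and Egr1 varied less in Bmal1 KO than in WT libraries, while Fos, Fosb, Egr2 and Egr3 varied more, and these spreads rest on 3 libraries each.

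Levels between genes were compared per kilobase of the longest protein-coding transcript in GENCODE vM21. Jund was highest in both groups, at 5508 ± 293 in Bmal1 KO and 8365 ± 1006 in WT, and Junb was next, at 2697 ± 109 in Bmal1 KO and 7044 ± 711 in WT normalized counts per kb. In Bmal1 KO libraries Jun (1267 ± 45.8), Egr1 (894 ± 72.7), Fosl2 (632 ± 3.42), Fos (616 ± 23.7), Fosl1 (293 ± 20.2), Egr2 (189 ± 34.9), Egr3 (80.4 ± 23.6) and Fosb (48.1 ± 11.5) followed. The order of the WT libraries was instead Egr1 (4197 ± 386), Fosl2 (1565 ± 177), Jun (1105 ± 48.7), Fosl1 (569 ± 118), Fos (219 ± 6.03), Egr2 (192 ± 18.5), Egr3 (68.5 ± 12.3) and Fosb (26.2 ± 3.34). Neighbours whose libraries overlapped were Fosl2 and Fos in Bmal1 KO, and Jund and Junb in WT. Jun thus stood above Egr1 in Bmal1 KO and below it in WT, and Fos stood above Fosl1 in Bmal1 KO and below it in WT. Per kilobase of coding sequence the WT order was the same, while in Bmal1 KO libraries Fosl2 moved above Jun and Egr1.

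The make-up of the AP-1 transcripts differed more than the balance of FOS against JUN. The 7 FOS and JUN genes summed to 11061 ± 309 normalized counts per kb in Bmal1 KO and 18893 ± 1490 in WT libraries. Fos made up 5.56 ± 0.0601% of this sum in Bmal1 KO, against 1.16 ± 0.116% in WT, and Jun 11.5 ± 0.716% in Bmal1 KO, against 5.86 ± 0.391% in WT. Junb made up 24.4 ± 1.12% in Bmal1 KO and 37.2 ± 0.807% in WT, and Fosl2 5.72 ± 0.136% in Bmal1 KO and 8.36 ± 1.49% in WT. For these 4 genes the libraries of the groups did not overlap, and the shares moved the same way per kilobase of coding sequence. Jun itself differed little (1267 in Bmal1 KO, against 1105 in WT per kb), so its larger share mainly reflects the smaller sum. Within the FOS family, Fos made up 38.7 ± 0.129% in Bmal1 KO and 9.26 ± 0.919% in WT per transcript kilobase. By the same measure the ratio of Fos to Fosl2 was 0.974 ± 0.0332 in Bmal1 KO and 0.141 ± 0.0128 in WT. Per kilobase of coding sequence it was 0.269 ± 0.00919 in Bmal1 KO and 0.0389 ± 0.00355 in WT. The level of Fos relative to Fosl2 thus depends on the length used, while its direction does not. The ratio of Jun to Junb per transcript kilobase was 0.471 ± 0.0317 in Bmal1 KO and 0.158 ± 0.0133 in WT. Its difference lies mainly in Junb (2697 in Bmal1 KO, against 7044 in WT per kb). The summed FOS to JUN ratio, 0.168 ± 0.00176 in Bmal1 KO and 0.146 ± 0.0298 in WT, overlapped between groups. Per kilobase of coding sequence this ratio was lower on average in Bmal1 KO (0.350 ± 0.00184) than in WT (0.421 ± 0.0832), and the groups again overlapped, so it has no settled direction. These shares describe RNA and were not tested, since they combine the members. In such bulk samples, fewer cells of a type and less RNA per cell cannot be told apart.

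**Figure D3:**
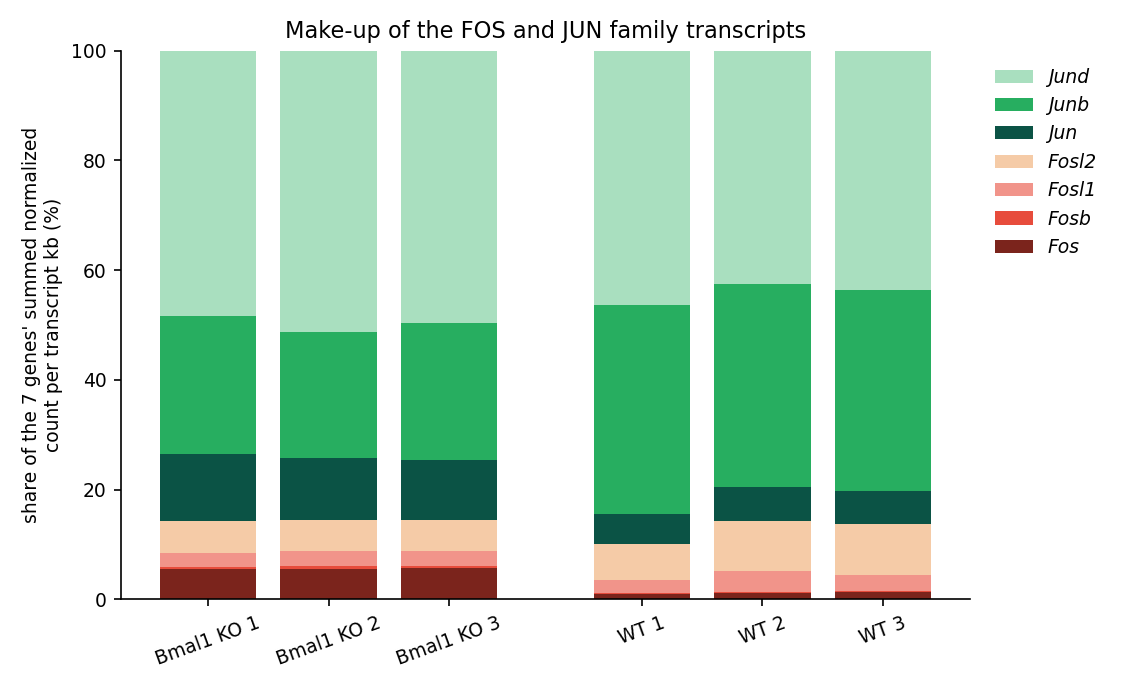
Share of each FOS and JUN gene in the summed normalized count per transcript kilobase of the 7 genes, as stacked bars for the 3 Bmal1 KO libraries at the left and the 3 WT libraries at the right. Jund is the largest part in every library. In the Bmal1 KO libraries the share of Junb is smaller and those of Fos and Jun are larger, while the sum itself is smaller.

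The pattern of Fos across the 6 libraries was most like that of Nr4a2, which encodes an orphan nuclear receptor and is itself an immediate early gene. Likeness was measured as the root mean square difference of log2 values centred on each gene's mean, and it was 0.029 for Nr4a2. Nr4a2 had 569.6, 604 and 601 normalized counts in Bmal1 KO libraries, against 197, 211 and 219 in WT libraries. Next came Plk1, a mitotic kinase gene, at 0.031, and Ncs1, a calcium sensor gene, at 0.032. The genes nearest to Jun were Dlst (0.018), Ephx1 (0.023) and R3hcc1 (0.027). Those nearest to Egr1 were Ltbp4 (0.052), which encodes a latent TGF-beta binding protein, Egln3 (0.053), which encodes a prolyl hydroxylase of the oxygen response, and the cadherin gene Cdh3 (0.066). With 2 groups of 3 libraries, likeness mainly reflects the size of the group difference.

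**Figure D4:**
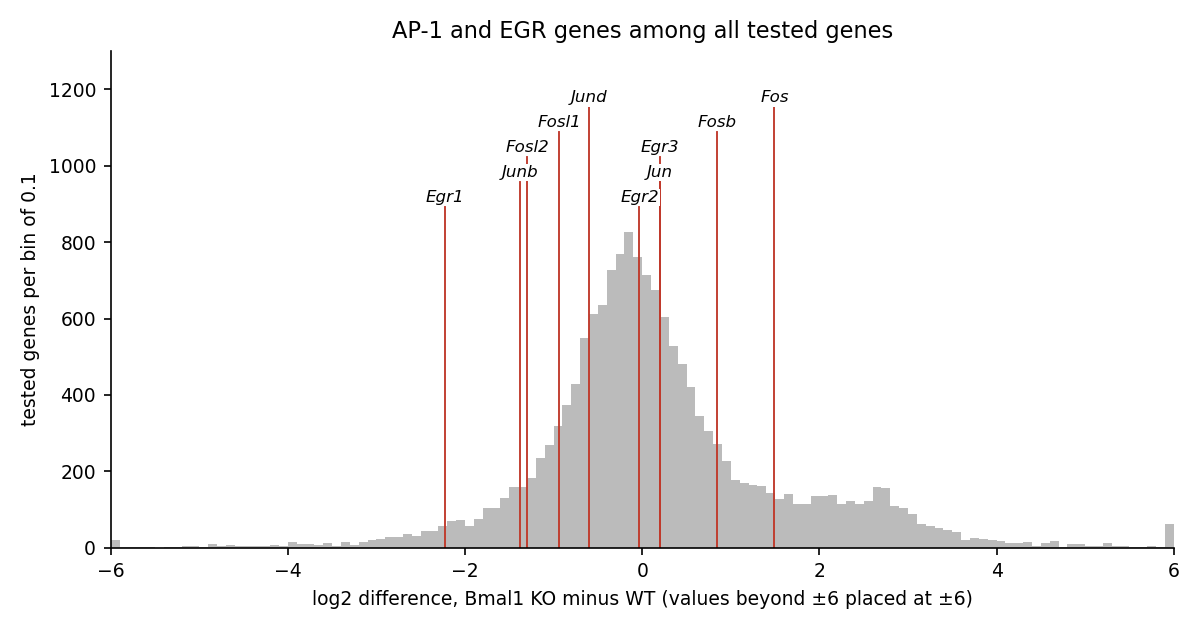
Histogram of the log2 differences of the 16086 tested genes, Bmal1 KO minus WT, in grey, with the 10 AP-1 and EGR genes marked by red lines whose heights carry no value. The members lie from -2.23 for Egr1 to 1.49 for Fos, inside the range of the other genes.

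Other bZIP proteins that pair with FOS or JUN also moved both ways. Of 14 such genes 11 could be tested, and 3 rose, 5 fell and 3 did not pass. For this and the lists below, the shares over all tested genes were 36.2% higher and 34.9% lower. Atf3, a stress-induced partner, fell 3.65-fold, to 207 ± 7.30 in Bmal1 KO, against 756 ± 72.6 in WT (limma adjusted p = 3.82e-06). Jdp2, which represses AP-1, and Maf, the cellular form of a viral oncogene, had log2 differences of -0.69 and -0.98. Mafa, a large MAF factor, rose, with a log2 difference of 2.23. Its values varied widely, at 342, 458 and 658 in Bmal1 KO libraries and 109, 54.7 and 164 in WT libraries.

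The partners of EGR proteins were measured as well. NAB1 and NAB2 bind EGR proteins and restrain their activity. Nab1 rose to 3659 ± 134 in Bmal1 KO, against 2458 ± 160.1 in WT (log2 difference 0.58, limma adjusted p = 0.000167). Nab2, which EGR1 itself induces, fell to 4142 ± 93.4 in Bmal1 KO, against 6385 ± 610.5 in WT (log2 difference -0.62, limma adjusted p = 0.000203). The remaining family gene Egr4 was low, at 90.7, 121 and 151 in Bmal1 KO libraries and 15.6, 3.32 and 19.3 in WT libraries, without overlap (log2 difference 3.40, SE 0.57, limma adjusted p = 0.00103).

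Among 33 further immediate early genes, 17 rose, 15 fell and Nr4a1 did not pass the test, while 71.1% of all tested genes passed. The median log2 difference was 0.16 and the median absolute difference 1.06, beside 0.63 for the absolute difference over all genes tested. Large differences were those of Ccn2 (100053 ± 2052 in Bmal1 KO, against 6306 ± 497 in WT, log2 difference 3.99), a matricellular gene of the Hippo and TGF-beta response, and Thbs1, which encodes thrombospondin (254407 ± 9692 in Bmal1 KO, against 27126 ± 3658 in WT, log2 difference 3.24). Myc, the growth regulator, had 2279.6 ± 93.9 in Bmal1 KO, against 10665 ± 512 in WT (log2 difference -2.23). Nfkbiz, which encodes a nuclear IkB protein, and Trib1, a pseudokinase gene, had log2 differences of -2.11 and -2.03. Among genes chosen after their values were seen, the phosphatase gene Dusp1 (log2 difference 1.64) and Klf6 (1.39) rose alongside Fos, while Ier2 (-1.65) and Ier3 (-1.77) fell alongside Egr1.

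**Figure D5:**
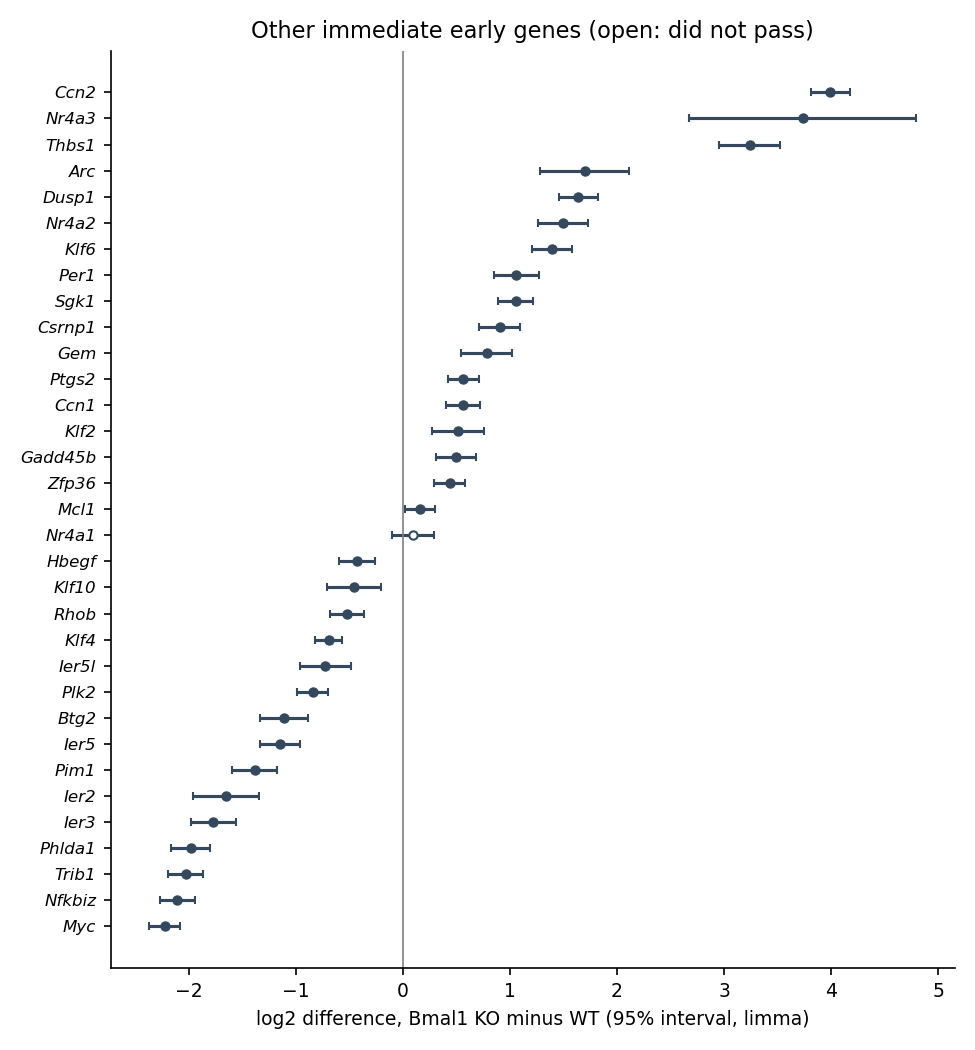
Log2 difference, Bmal1 KO minus WT, of the 33 further immediate early genes on the horizontal axis with 95% intervals from limma, ordered by value and open where the test was not passed. They run from -2.23 for Myc to 3.99 for Ccn2, and Nr4a1 is the open point.

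Factors known to act at immediate early promoters moved both ways, with 2 of 9 genes higher, 5 lower and 2 short of the threshold. Their binding was not measured. Elk4, which encodes a ternary complex factor that MAP kinases activate, rose to 647 ± 23.0 in Bmal1 KO, against 269.5 ± 34.9 in WT (log2 difference 1.27), and Mrtfb, a coactivator of SRF, had a log2 difference of 1.36. Srf fell to 2528 ± 205 in Bmal1 KO, against 3522 ± 169 in WT (log2 difference -0.48). Creb1, Atf1 and Crem, which encode factors of the cAMP response, had log2 differences of -0.43, -0.45 and -0.59. Elk3 fell narrowly (-0.16, limma adjusted p = 0.0346), and missed the threshold on leaving out any 1 library other than WT replicate 1, with adjusted p up to 0.127. The values of Elk1 were 1185 ± 91.2 in Bmal1 KO and 1225 ± 68.9 in WT, and those of Mrtfa 4559 ± 113 in Bmal1 KO and 4654 ± 686 in WT. Both passed as lower when length and GC content were corrected for with the median left free (limma adjusted p = 0.0192 for Elk1 and 0.00537 for Mrtfa). That setting moved the median log2 difference of all genes to -0.24.

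The MAP kinase cascade that carries growth and stress signals to these promoters was split, with 11 of 28 genes higher, 10 lower and 7 not passing, and a median log2 difference of -0.0018. When differences were corrected for transcript length and GC content, and the median over all genes was left free, 5 were higher. Over all genes that setting gave 4294 higher and 7129 lower, against 5816 and 5619 in the main fit. Mapk12 and Mapk13, which encode p38 isoforms, had log2 differences of -2.02 and -1.79, Rps6ka1, a ribosomal S6 kinase gene, of -1.84 and Map2k6, a p38 activator gene, of -1.45. Mapk10, which encodes JNK3, rose (log2 difference 2.78). Of 7 genes for JUN and FOS turnover, 2 rose, among them Itch, a ubiquitin ligase gene of JUN proteins (log2 difference 0.55), and 5 did not pass. With the same correction neither of the 2 passed.

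Genes known from the literature as AP-1 or EGR1 targets did not share a direction. Of 16 AP-1 targets 7 rose, 8 fell and Tgfb1 missed the threshold. Their median log2 difference was -0.48. Large differences were those of the chemokine gene Ccl2 (-4.82), the stromelysin gene Mmp10 (3.81), the growth factor gene Vegfa (-3.67) and the urokinase gene Plau (-2.43). Plau had 313 ± 1.79 in Bmal1 KO and 1698 ± 53.3 in WT libraries. Of 12 EGR1 targets 4 rose, 6 fell, and Pdgfb and Tgfb1 missed the threshold, the median being -0.65. With the correction for length and GC content and the median left free, 2 rose. Fewer rises were then called over all genes as well (4294, against 5816 in the main fit). In the uncorrected fit the listed EGR1 targets included the growth factor gene Fgf2 (3.99), the stress cytokine gene Gdf15 (-3.58) and the adhesion molecule gene Icam1 (-1.92), and the Vegfa and Thbs1 already named are on this list too.

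Markers of smooth muscle and of other cell types moved with the genotype label. All 7 smooth muscle markers rose, with summed normalized counts of 99883 to 108226 in Bmal1 KO and 28538 to 32645 in WT libraries. Each had reads in both groups, but Myocd was near the floor in WT libraries, at 6.42, 0.829 and 0.921, with 9 reads in all. Endothelial markers were low, and 6 of 7 rose, with sums of 852 to 1122 in Bmal1 KO and 323 to 469 in WT libraries. Of 7 macrophage markers 5 rose and 2 fell (sums of 1717 to 1998 in Bmal1 KO and 3370.0 to 3819 in WT), of 7 fibroblast markers 4 rose and 3 fell (32556 to 35619 in Bmal1 KO and 40977 to 43492 in WT), and of 6 mesothelial and epithelial markers 3 rose and 3 fell (6590 to 10406 in Bmal1 KO and 3645 to 4888 in WT). The macrophage sum was weighted by Cd14, which fell (404 ± 24.1 in Bmal1 KO, against 2886 ± 307 in WT). The fibroblast sum was weighted by Dcn, which also fell (2403 ± 77.2 in Bmal1 KO, against 26320 ± 1947 in WT). These 2 sums therefore do not follow the majority of their markers. No marker of these cell types was at 0 in all libraries. Their part in the differences of the AP-1 and EGR genes was not tested.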

How the data were processed

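The authors' deposited table holds a normalized count, a signal of 0 or more, for each gene in each library. The submitters' processing notes name Trimmomatic, HISAT2, featureCounts and mm10, with no version. Neither the annotation nor the strand setting is stated in those notes. Dividing by the smallest step of its library made every value whole (100% within 0.01), so reads were recovered by division, and the implied size factors equalled DESeq2's median-ratio factors. All 6 columns were mapped to samples by library name.

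The main test was limma 3.58.1 in R 4.3.3 (eBayes with trend) on log2(value + 1), keeping genes that reached 10 in 3 or more libraries, with genotype as the only term. Folds are ratios of mean normalized counts. The pseudocount understates changes of low genes. Counts of reads limit precision, and replicates of a group differed by more than sampling noise over all genes, though not in every member. Principal component 1 carried 88.7% of the variance. The labels put all libraries in 1 batch. The fit was tested on simulated data in which few genes differed and all genes shared the same spread beyond counting noise. The data here differ in both respects, so the simulation checks the code and not the error rate.

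Alternatives were TMM, upper-quartile and library-total scaling, pseudocounts of 0.5 and 5, no filter, a filter of 1 CPM, a replicate block, leaving out each library, edgeR 4.0.16, DESeq2 1.42.0 and voom. Removal of a spline trend on GENCODE vM21 transcript length and GC content (92.5% of tested genes) was added after seeing the data. Members and gene lists were chosen with earlier results of these data known. From each list up to 5 genes past the threshold were named, by largest absolute difference. Only genes with a mean of at least 50 and no overlap between groups were considered. All EGR partners and all listed factors known to act at immediate early promoters were added. Coordinates are whole genes from RefSeq GRCm38.p6, the mm10 assembly. Some genes that this rule names are not reported here.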

Additional observations from a re-analysis of the deposited data

How the results depend on the processing

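Fos, Fosb, Fosl1, Fosl2, Junb, Jund and Egr1 kept their direction and passed the threshold under all 19 alternatives, with log2 differences of 1.39 to 1.58 for Fos, 0.60 to 1.06 for Fosb, -1.07 to -0.78 for Fosl1, -1.83 to -1.24 for Fosl2, -1.53 to -1.30 for Junb, -0.84 to -0.50 for Jund and -2.57 to -2.17 for Egr1. Jun was higher in each but missed the threshold with TMM scaling (0.14), library-total scaling (0.12), edgeR (0.17), voom (0.17), and after correction for length and GC with the median left free (0.034), which moved the median of all genes to -0.24. Without 1 library each, Jun ran from 0.16 to 0.23, Egr2 from -0.17 to 0.085 and Egr3 from -0.0099 to 0.42. Egr2 turned positive with upper-quartile scaling (0.021) and after the same correction with the median kept (0.0038), and Egr3 turned negative with the median left free (-0.076). Neither passed in any alternative. Of genes that did not pass, Elk1 (0.0038) and Mrtfa (0.033) turned with upper-quartile scaling, and without 1 library each ran from -0.0966 to 0.016 (Elk1) and from -0.135 to 0.0798 (Mrtfa). After correction for length and GC, Elk1 (-0.27) and Mrtfa (-0.36) passed as lower with the median left free, and Mrtfa (-0.17) with it kept. The endothelial gene Vwf went to -0.11 with the median left free.

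List counts moved in few cases. Without the filter, which let in low genes such as Batf and Batf2, 5 bZIP partners rose. With the filter of 1 CPM, which left fewer genes to test, 3 macrophage markers rose. With the median left free, 5 MAP kinase genes, 0 turnover genes and 2 EGR1 targets rose and 3 turnover genes fell, and with it kept 2 turnover genes fell. Without 1 library, 0 to 1 turnover genes fell. The cause was not tested. All genes called numbered 5816 higher and 5619 lower, and 5588 and 5891 with edgeR, 5787 and 5480 with DESeq2, 5438 and 6141 with TMM, and 4294 and 7129 with the median left free. The replicate numbers did not pair the samples (correlations of -0.0045, 0.026 and 0.084, and 1 of 6 samples correlated best with its own number). With the replicate as a block 5869 genes were higher and 5687 lower, and 3 members higher and 5 lower.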
